A study of Mus musculus with 15 samples.

Results

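Neuroblast and proliferation genes were examined in RNA sequencing of the mouse striatum, a brain region that borders the lateral ventricle. The set held 10 genes, taken by symbol from the 45777 features of the deposited tables. They are Dcx, Cd24a and Igfbpl1 (cytoskeleton, surface and secreted products of neuroblasts), Sox4 and Sox11 (SoxC transcription factors), Dlx1, Dlx2 and Dlx5 (distal-less homeobox factors), and Mki67 and Top2a (proliferation). All animals were wild type males of the outbred ICR stock, with tissue taken at 7 weeks of age. Their lineages began with F0 sires that were 6 weeks old when a course of 21 daily subcutaneous injections began, either of methamphetamine (METH, a dopamine-releasing psychostimulant) at 5 mg/kg or of saline at 10 mL/kg. Dams of both generations were drug-free; F1 males were the direct offspring of these sires and themselves fathered the F2 males. The labels describe drug treatment of the F0 sires only. There were 4 F1 saline, 3 F1 METH, 4 F2 saline and 4 F2 METH libraries, each counted as 1 replicate. The labels tie no animal to a litter or founder, so p-values measure the spread between these libraries only. Some animal numbers are used in both generations (1, 3, 6 and 7 for saline, 2 and 9 for METH). It is not stated whether a shared number means father and son, and all 15 libraries were taken as independent when generations were compared.

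In the adult rodent brain, stem cells of the ventricular-subventricular zone, which lines the wall of the lateral ventricle beside the striatum, give rise to dividing progenitors and then to neuroblasts that migrate to the olfactory bulb. Neuroblasts are recognised by doublecortin, the product of Dcx, and by SoxC and Dlx factors, which act in newborn neurons and in the GABAergic lineage. Mki67 and Top2a are transcribed in cycling cells of any type. Neither group is specific to the zone: Dlx genes are also expressed in mature GABAergic neurons, and the surface protein encoded by Cd24a is carried by ependymal cells as well as neuroblasts.

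Total counts per library ranged from 31563806 to 50573906. The 15 listed markers of spiny projection neurons, the principal striatal cells, were all detected and summed to between 7943 and 14310 CPM (read counts scaled by library size and composition). The labels call the cell type neuronal, yet 12 astrocyte markers summed to between 3816 and 6172 CPM and 12 microglial markers were detected. In such bulk tissue, fewer cells of a type and less RNA per cell cannot be told apart. Slc17a7, which encodes a glutamate transporter typical of cortical neurons, passed 100 CPM in 5 libraries. In F1 these were saline replicates 1 and 3 with METH replicate 3, and in F2 saline replicate 4 with METH replicate 2. A further pair of libraries stood out in the genes examined here. F1 saline replicate 4 was the highest F1 library for 8 of the 10 genes (not Dcx or Sox11), and F2 METH replicate 3 was the highest F2 library for 8 (not Sox11 or Dlx5).

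All 10 genes were detected in every library, from 52 to 164 reads for Igfbpl1 up to 590 to 1369 reads for Dcx. Compared per transcript length, in the deposited TPM (a read count scaled by gene length and library), Dlx5 had the highest level, 32.7 ± 5.25 TPM (mean ± SD, n = 15). Its level was above that of Sox4 in 15 of 15 libraries, and the ranges of the pair did not overlap. Next came Sox4 at 11.1 ± 2.37, Cd24a at 10.7 ± 3.94 and Dlx1 at 10.5 ± 2.90 TPM, whose order was not fixed: Sox4 was above Cd24a in 9 of 15 libraries, and Cd24a above Dlx1 in 7. Dlx2 stood at 8.59 ± 1.86 TPM and was below Dlx1 in 13 of 15 libraries. Dcx at 7.07 ± 1.29 and Sox11 at 7.06 ± 1.24 TPM could not be ordered, Dcx being the higher in 5 of 15. The lowest levels were those of Igfbpl1 at 2.70 ± 1.04, Top2a at 2.51 ± 0.991 and Mki67 at 1.33 ± 0.556 TPM. Top2a exceeded Mki67 in 15 of 15 libraries, although their ranges over all libraries overlapped.

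**Figure D1:**
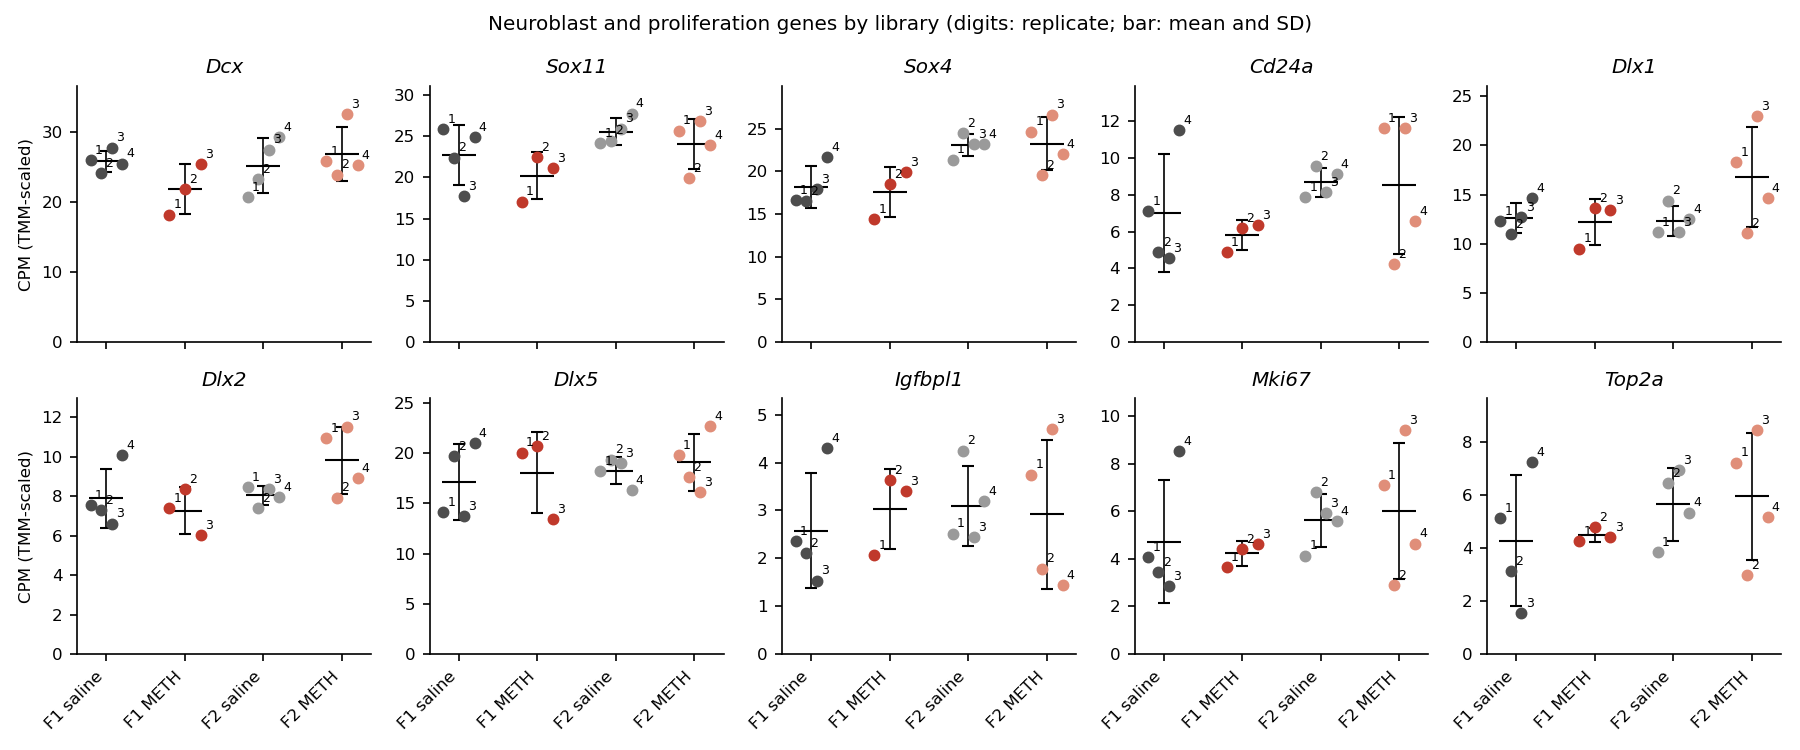
Each panel plots the CPM (vertical axis, from 0) of 1 gene in the 15 libraries by group (horizontal axis); points are libraries with their replicate number, and bars are the group mean and SD. Groups overlap for each of the 10 genes in both generations, and F1 saline replicate 4 and F2 METH replicate 3 lie at the top of most panels.

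The first question was whether these genes differed in sons with the treatment of the sire. In F1, 7 of the 10 genes were lower and 3 higher in METH mice, and none differed beyond the spread between libraries. The median log2 fold change (METH minus saline, here and below) was -0.08, against -0.0035 over the 18499 genes tested, of which 49.1% were higher. edgeR's quasi-likelihood test with Benjamini-Hochberg adjustment called 0 of the 10, each with an adjusted p of 0.994, and 0 genes of all tested (0%). At an unadjusted p under 0.05 it found 0 of the 10, where 4.18% of all genes passed. The CPM of the groups overlapped for all 10, while 5.56% of all genes had groups that did not overlap in either direction.

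The second question was the same in grandsons. In F2, 7 of the 10 genes were higher and 3 lower in METH mice, with a median log2 fold change of 0.08 against -0.0020 over 18093 genes. Dlx1 and Dlx2 were the 2 with an unadjusted p under 0.05, where 4.77% of all genes passed. Neither was called after adjustment, and edgeR called 0 of all genes tested (0%), so that no F2 difference among the 10 held at this threshold. Groups overlapped for all 10 genes, against 2.62% of all genes whose groups did not overlap.

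Whether the effect of lineage differed between generations was tested directly, as the F2 effect minus the F1 effect over all 15 libraries. The difference was positive for 7 of the 10 genes and negative for 3, with a median of 0.16. None of the 10 was called (edgeR adjusted p = 1.0 for each), where 0.00518% of 19308 genes were called. None had an unadjusted p under 0.05, where 4.88% of all genes did. In all 3 comparisons, DESeq2 and limma-voom likewise called 0 of the 10. The largest positive differences were those of Dlx1 (0.50, SE 0.28), Dlx2 (0.40, SE 0.23) and Dcx (0.34, SE 0.19), with edgeR unadjusted p of 0.0928, 0.0935 and 0.0917.

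**Figure D2:**
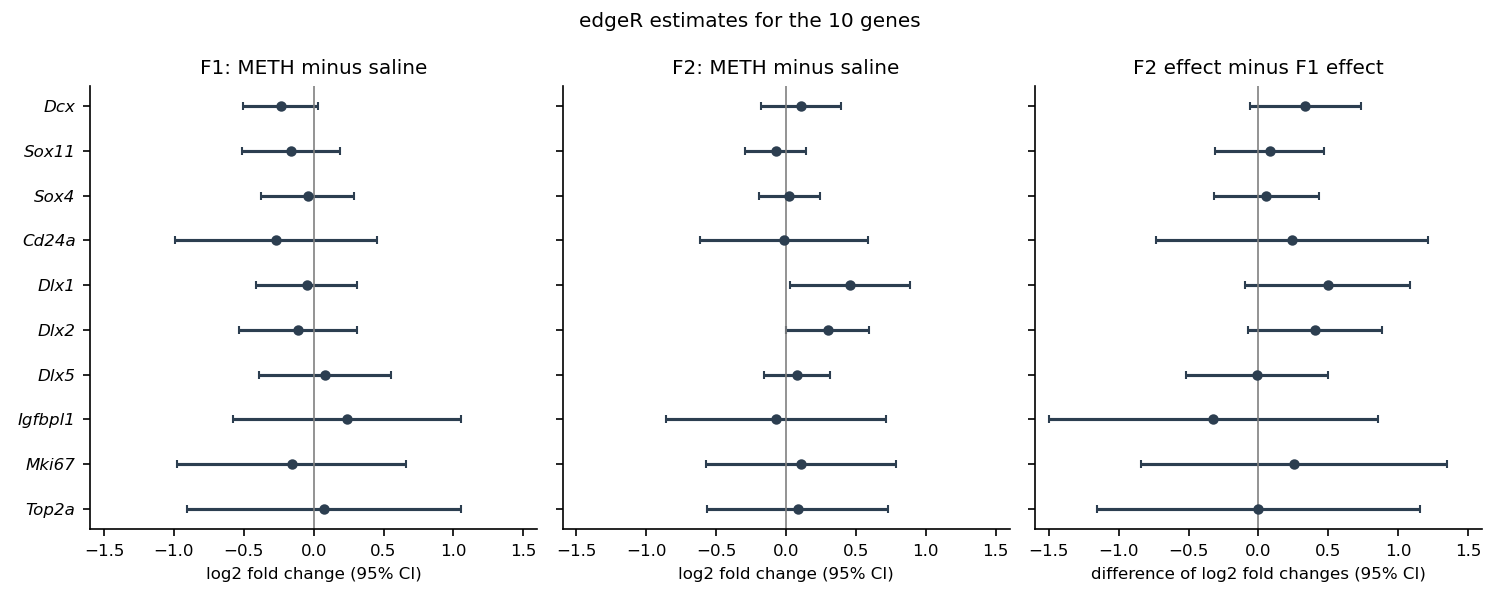
Log2 fold change (horizontal axis) of the 10 genes (rows) for each generation and for the difference between generations, as edgeR estimates with 95% confidence intervals. Intervals are widest for Top2a, Mki67, Igfbpl1 and Cd24a, and those of Dlx1 and Dlx2 in F2 lie above 0 before adjustment.

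Dcx (gene ID 13193, chromosome X, 143855842 to 143933396) encodes doublecortin, a microtubule-associated protein of migrating neurons. In F1 saline replicates 1 to 4 it was at 26.0, 24.1, 27.8 and 25.5 CPM. In F1 METH replicates 1 to 3 it was at 18.2, 21.9 and 25.5 CPM. METH replicates 1 and 2 lay below every saline library, and replicate 3 lay within the saline range. The means were 25.9 ± 1.52 and 21.9 ± 3.61 CPM (SD, n = 4 and n = 3), a log2 fold change of -0.24 with a 95% interval of -0.51 to 0.03 (edgeR unadjusted p = 0.0782). Leaving out F1 METH replicate 1 moved it to -0.12, and leaving out F1 METH replicate 3 to -0.36. In F2, Dcx was at 20.7, 23.3, 27.6 and 29.3 CPM in saline and at 25.9, 24.0, 32.6 and 25.3 CPM in METH mice. These groups overlapped over most of their range, with a log2 fold change of 0.11 (SE 0.13).

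Cd24a (gene ID 12484, chromosome 10, 43579169 to 43584265) encodes a small glycoprotein anchored to the cell surface. It was at 7.12, 4.89, 4.55 and 11.5 CPM in F1 saline and at 4.89, 6.19 and 6.37 CPM in F1 METH mice. F1 saline replicate 4 was far above the rest, and the METH libraries fell inside the saline range. The F1 log2 fold change was -0.27 (SE 0.32), and without that replicate it was 0.083. In F2, Cd24a was at 7.87, 9.57, 8.15 and 9.12 CPM in saline and at 11.6, 4.25, 11.6 and 6.57 CPM in METH mice. Of the METH libraries, 2 lay above and 2 below all saline libraries, so that the means differed little (log2 fold change -0.02, SE 0.27) while the coefficient of variation was 9.21% in saline and 43.6% in METH mice. Igfbpl1 (gene ID 75426, chromosome 4, 45809507 to 45826827), a secreted protein related to insulin-like growth factor binding proteins, spanned 1.53 to 4.30 CPM in F1 saline, 2.07 to 3.63 in F1 METH, 2.44 to 4.25 in F2 saline and 1.45 to 4.70 in F2 METH mice. Its log2 fold change was 0.24 (SE 0.36) in F1 and -0.07 (SE 0.36) in F2, and the F1 value was 0.61 without F1 saline replicate 4 and 0.0542 without F1 saline replicate 3. Its widest group, F2 METH, held both the lowest and the highest F2 library. Igfbpl1 overlaps Stra6l in the annotation, which had 0 to 23 reads per library.

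The SoxC factors sustain the expression of neuronal genes in newly formed neurons. Sox11 (gene ID 20666, chromosome 12, 27334268 to 27342718) was at 22.7 ± 3.64 CPM in F1 saline and 20.2 ± 2.84 CPM in F1 METH mice (SD, n = 4 and n = 3; log2 fold change -0.16, SE 0.15). In F2 the saline mean was 25.6 ± 1.64 CPM and the METH mean 24.1 ± 3.06 CPM (SD, n = 4 each), which gave an estimate of -0.07 (SE 0.10). Sox11 was 1 of 2 genes, with Cd24a, whose estimate was below 0 in both generations. Sox4 (gene ID 20677, chromosome 13, 28948919 to 28953699) had log2 fold changes of -0.04 (SE 0.15) in F1 and 0.02 (SE 0.10) in F2. Its level was 18.2 ± 2.43 CPM in F1 saline, 17.6 ± 2.87 in F1 METH, 23.1 ± 1.28 in F2 saline and 23.2 ± 3.10 in F2 METH mice. F1 and F2 values come from separate tables, so that a difference in level between generations cannot be told apart from one between tables. The 95% interval of Sox4 in F2, -0.19 to 0.24, and that of Sox11, -0.29 to 0.14, were among the narrowest of the 10.

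Dlx1 and Dlx2 are adjacent on chromosome 2 and encode homeobox factors needed for the differentiation and migration of forebrain GABAergic neurons. Dlx1 (gene ID 13390, 71528113 to 71533981) was at 11.2, 14.4, 11.2 and 12.5 CPM in F2 saline replicates 1 to 4. It was at 18.3, 11.1, 23.0 and 14.7 CPM in F2 METH replicates 1 to 4. METH replicates 1, 3 and 4 lay above every saline library, and replicate 2 lay just below all of them. The means were 12.3 ± 1.51 and 16.8 ± 5.10 CPM (SD, n = 4 each), a log2 fold change of 0.46 (SE 0.19) with a 95% interval of 0.03 to 0.89. The edgeR unadjusted p was 0.0382 and the adjusted p 0.960. Leaving out F2 METH replicate 3 moved the estimate to 0.26 (edgeR unadjusted p = 0.145), and leaving out replicate 2 moved it to 0.61 (edgeR unadjusted p = 0.00322, adjusted p = 1.0). Dlx1 shares its locus with the antisense gene Dlx1as, which had 149 to 347 reads per library, and since the strand of the counting is not given in the sources used here, reads of the pair cannot be told apart.

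Dlx2 (gene ID 13392, chromosome 2, 71543408 to 71546754) was at 8.47, 7.41, 8.35 and 7.95 CPM in F2 saline and at 10.9, 7.92, 11.5 and 8.90 CPM in F2 METH mice. The order of the METH libraries was that of Dlx1, with replicates 1, 3 and 4 above every saline library and replicate 2 within the saline range. Its log2 fold change was 0.30 (SE 0.13), with an edgeR unadjusted p of 0.0485 and an adjusted p of 0.960, and it was 0.21 without F2 METH replicate 3. In F1, neither gene showed this order. Dlx1 was at 12.3, 10.96, 12.7 and 14.6 CPM in saline and at 9.49, 13.6 and 13.4 CPM in METH mice (log2 fold change -0.05, SE 0.16). For Dlx2 the F1 estimate was -0.11 (SE 0.19). Dlx5 (gene ID 13395, chromosome 6, 6877801 to 6882068), of the second Dlx gene pair, had log2 fold changes of 0.08 (SE 0.21) in F1 and 0.08 (SE 0.11) in F2. F2 METH replicate 3, the highest F2 library for Dlx1 and Dlx2, was the lowest for Dlx5, at 16.2 CPM against 16.3 to 22.7 CPM in the other F2 libraries.

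Mki67 (gene ID 17345, chromosome 7, 135689784 to 135716450) encodes the Ki-67 protein that coats mitotic chromosomes, and Top2a (gene ID 21973, chromosome 11, 98992947 to 99024199) encodes the DNA topoisomerase that untangles sister chromatids. Mki67 was at 4.07, 3.46, 2.86 and 8.52 CPM in F1 saline and at 3.65, 4.41 and 4.63 CPM in F1 METH mice. F1 saline replicate 4 alone lay above the METH libraries, and the log2 fold change was -0.16 (SE 0.36), or 0.30 without that replicate. In F2, Mki67 was at 4.14, 6.82, 5.94 and 5.60 CPM in saline and at 7.10, 2.91, 9.42 and 4.65 CPM in METH mice. METH replicates 1 and 3 lay above and replicate 2 below all saline libraries, and the estimated log2 fold change was 0.11 (SE 0.31). Top2a was at 5.14, 3.15, 1.56 and 7.26 CPM in F1 saline and at 4.27, 4.79 and 4.42 CPM in F1 METH mice (log2 fold change 0.07, SE 0.43). The coefficient of variation of Top2a was 57.8% in F1 saline and 6.04% in F1 METH mice. In F2 it was at 3.84, 6.47, 6.96 and 5.34 CPM in saline and at 7.24, 2.97, 8.45 and 5.18 CPM in METH mice (log2 fold change 0.08, SE 0.29). From high to low, Top2a ordered the F2 METH libraries as replicates 3, 1, 4 and 2, and 8 of the 10 genes (all but Dlx5 and Igfbpl1) had this same order. The share of all genes with this order was not counted. Many of the 8 also varied together, as given below, so they are not 8 separate observations. With intervals from -0.57 to 0.79 for Mki67 and from -0.56 to 0.73 for Top2a in F2, these data do not exclude sizeable differences in either direction.

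The promoter windows of the proliferation genes Mki67 and Top2a are shown, from RefSeq on GRCm38.p6 (the build called mm10). Each stops at the last base before the annotated start of the gene and is written 5′ to 3′ on the minus strand, on which both genes lie. The Mki67 window is chr7:135716451-135716629 and that of Top2a is chr11:99024200-99024439. Capitals mark the letters TTTGAA of the cell cycle genes homology region and the letters CCAAT of the CCAAT box, on either strand (TTCAAA and ATTGG when reversed). These elements are known from promoters of genes used late in the cell cycle.
Mki67: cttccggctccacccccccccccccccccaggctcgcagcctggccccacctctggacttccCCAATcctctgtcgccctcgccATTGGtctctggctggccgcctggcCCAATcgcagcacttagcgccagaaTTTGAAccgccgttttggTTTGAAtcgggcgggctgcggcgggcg
Top2a: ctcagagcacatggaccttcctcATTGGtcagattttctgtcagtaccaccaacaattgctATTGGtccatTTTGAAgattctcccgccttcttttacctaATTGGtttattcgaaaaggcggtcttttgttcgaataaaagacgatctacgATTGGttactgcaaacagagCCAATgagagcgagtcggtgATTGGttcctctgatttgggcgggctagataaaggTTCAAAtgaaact
The 179 bases of Mki67 held 2 matches to TTTGAA and 3 to CCAAT, and the 240 bases of Top2a held 2 and 6. No match overlapped another. Of 32851 RefSeq promoter windows trimmed to the same length, TTTGAA occurred in 12.6% and CCAAT in 24.8% at the Mki67 length, and in 15.5% and 33.0% at the Top2a length. These were the first bases of each window and were not set to end at the start of their own gene. They can thus lie elsewhere relative to that start than the 2 windows shown. A homeodomain core, TAATTA, had 0 matches in either window and occurred in 3.85% and 4.77% of all windows. A match is a string of letters, not a binding site, and its part in how the genes varied between libraries was not tested.

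Apart from lineage, the 10 genes differed between libraries of the same group, and much of this was shared. Correlations were computed on deviations from group means of log2 CPM over 15 libraries, with two-sided permutation within groups and Benjamini-Hochberg adjustment over all 105 pairs computed. Of 45 pairs among the 10 genes, 42 had a positive Pearson r, the median r was 0.63, and 14 had an adjusted permutation p under 0.05. Cd24a and Mki67 were the closest pair, with r = 0.95 and Spearman rho = 0.95 (adjusted permutation p = 0.0063 and 0.0047). Within generations the r of this pair was 0.97 in F1 and 0.94 in F2, and without the 2 libraries farthest from the median of Cd24a, F1 saline replicate 4 and F2 METH replicate 2, it was 0.91. Mki67 and Top2a had r = 0.90 and rho = 0.90 (adjusted permutation p = 0.0112 and 0.0047). This pair had r = 0.86 in F1 and 0.97 in F2, and 0.83 without its own 2 farthest libraries. Sox4 and Dlx1 had r = 0.90 and rho = 0.90 (adjusted permutation p = 0.0063 and 0.0060), with 0.94 in F1 and 0.97 in F2 and 0.91 without the 2 farthest.

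Pairs of a neuroblast gene with a proliferation gene passed in some cases and not in others. Mki67 was correlated with Sox4 (r = 0.83, rho = 0.86, adjusted permutation p = 0.0123 and 0.0146), Dlx1 (r = 0.82, rho = 0.80, adjusted permutation p = 0.0123 and 0.0241) and Igfbpl1 (r = 0.87, rho = 0.86, adjusted permutation p = 0.0184 and 0.0203). Without the 2 libraries farthest from the median of the first-named neuroblast gene, the first of these was 0.85 and the others 0.66 and 0.77. Top2a passed with Sox11 (r = 0.82, rho = 0.82, adjusted permutation p = 0.0186 and 0.0203) and Cd24a (r = 0.87, rho = 0.90, adjusted permutation p = 0.0123 and 0.0203). Without the 2 libraries farthest from the median of Sox11 and of Cd24a, these r were 0.58 and 0.78. Over the 10 libraries with Slc17a7 at or under 100 CPM they were 0.56 and 0.85. Top2a did not pass with Sox4 (r = 0.58, rho = 0.66, adjusted permutation p = 0.116 and 0.0769) or Dlx1 (r = 0.58, rho = 0.66, adjusted permutation p = 0.0755 and 0.0842), and with Igfbpl1 it passed by rho alone (r = 0.74, rho = 0.79, adjusted permutation p = 0.0558 and 0.0475). Dlx2 passed with 0 genes after adjustment, its highest r being 0.77, with Cd24a (rho = 0.61, adjusted permutation p = 0.0636 and 0.179). Dcx also passed with 0 genes. The r of Dcx was 0.63 with Sox4 (rho = 0.61, adjusted permutation p = 0.0676 and 0.0889) but 0.05 with Dlx2 and -0.56 with Dlx5 (rho = 0.14 and -0.49, adjusted permutation p = 0.893 and 0.0906 for r). Dlx5 stood apart from the rest, with r between -0.56 and 0.46 with the other 9 genes.

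**Figure D3:**
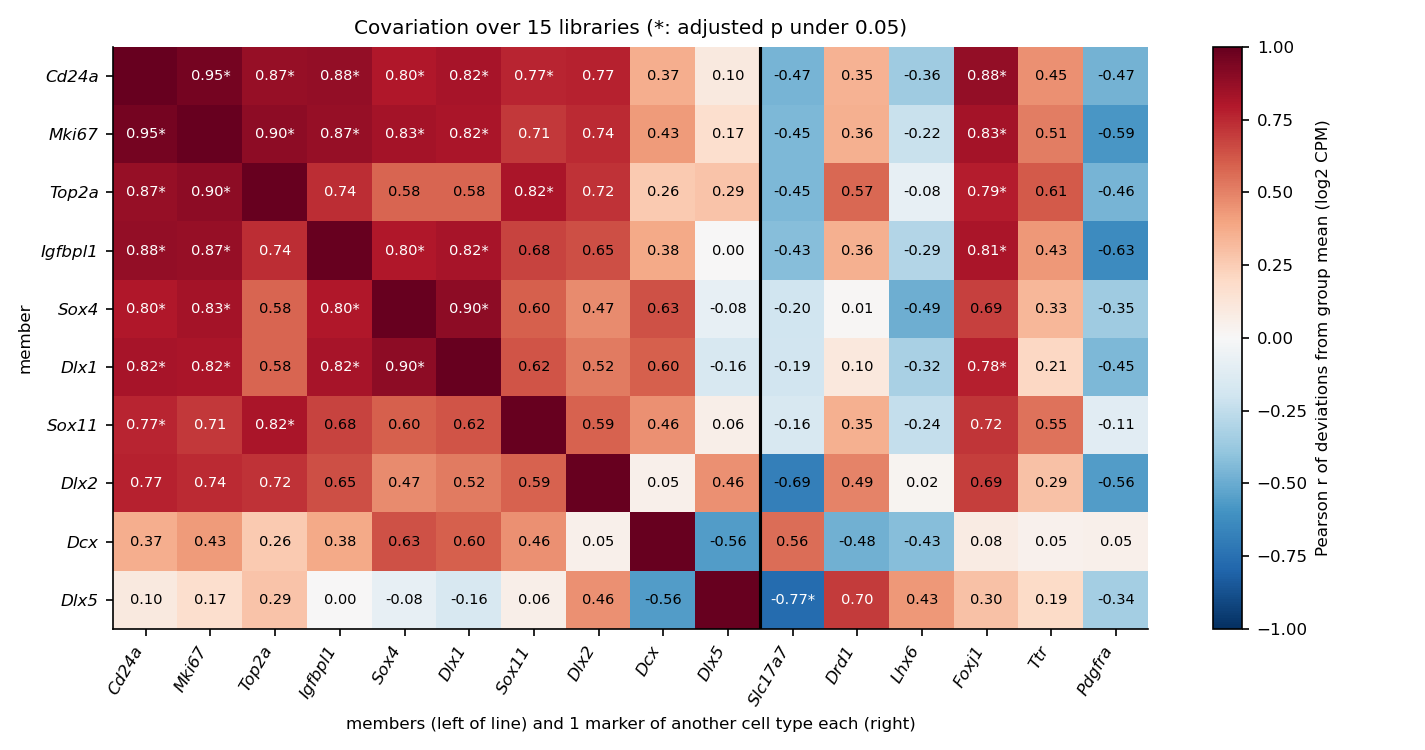
Pearson r (colour and number) between the 10 genes (rows) and, in columns, the same genes and 6 marker genes of other cell types, from deviations from group means of log2 CPM over 15 libraries. Cd24a, Mki67, Top2a, Igfbpl1, Sox4 and Dlx1 have mostly high r with each other and with the ependymal marker Foxj1 (lowest for Top2a with Sox4 and Dlx1, 0.58 each), while Dcx and Dlx5 have lower r.

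Of the 60 pairs of a gene with a marker of another cell type, 6 passed by r. Foxj1, the master regulator of motile cilia and a marker of ependymal cells, took 5 of them. Its r was 0.88 with Cd24a, 0.83 with Mki67, 0.81 with Igfbpl1, 0.79 with Top2a and 0.78 with Dlx1. The matching rho were 0.86, 0.75, 0.85, 0.71 and 0.80, and the adjusted permutation p of r were 0.0123, 0.0217, 0.0217, 0.0344 and 0.0217. Those of rho were 0.0146, 0.0539, 0.0203, 0.0769 and 0.0203, so that Mki67 and Top2a did not pass by rank. Without the 2 libraries farthest from the median of the named gene, r was 0.77, 0.71, 0.74, 0.67 and 0.63. Foxj1 was at 7.42 CPM in F1 saline replicate 4 against 3.07 to 6.09 in the other F1 libraries. In F2 METH mice it was at 11.8, 4.86, 12.5 and 8.76 CPM, high in replicates 1 and 3 and low in replicate 2 as Mki67 was. In F2 saline mice Foxj1 was at 11.1, 14.1, 7.95 and 8.53 CPM, and replicate 2 was its highest library of all 15. That replicate was also the highest F2 saline library for Mki67, but replicate 1, the next in Foxj1, was the lowest for Mki67, at 4.14 CPM. All 15 ependymal and cilia markers were detected, and their sum was 59.2 to 108 CPM in F1 saline, 73.2 to 80.8 in F1 METH, 68.5 to 87.5 in F2 saline and 61.0 to 97.4 in F2 METH mice, highest in F1 saline replicate 4 and F2 METH replicate 3. Tppp3 had the largest part in this sum, with a mean of 42.9 CPM in F1 saline, followed by Rsph1 at 14.0 CPM. Foxj1 was at 5.06 CPM there and others were lower, such as Hydin at 0.982 CPM. The part of these markers in the levels of the 10 genes was not tested. Just short of the threshold with Foxj1 were Sox11, Sox4 and Dlx2, at r of 0.72, 0.69 and 0.69 (adjusted permutation p = 0.0558, 0.058 and 0.0664). Dlx5 had an r of 0.30 with Foxj1 (rho = 0.27, adjusted permutation p = 0.444 and 0.508). Dcx had an r of 0.08 with Foxj1 (rho = 0.09, adjusted permutation p = 0.859 and 0.830).

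The remaining pair was Dlx5 with Slc17a7, at r = -0.77 and rho = -0.75 (adjusted permutation p = 0.0305 and 0.0416). Its r was -0.93 in F1, -0.44 in F2 and -0.66 without the 2 libraries farthest from the median of Dlx5. The 3 F1 libraries with Slc17a7 over 100 CPM had Dlx5 at 13.4 to 14.1 CPM, and the other 4 F1 libraries had it at 19.7 to 21.0 CPM. Without the 5 such libraries of both generations r was -0.19, so that the relation rests on them. Just short of the threshold with Slc17a7 was Dlx2, at r = -0.69 (rho = -0.60, adjusted permutation p = 0.0636 and 0.116). Its r with Slc17a7 was -0.94 in F1 and -0.30 in F2. Dlx5 with Drd1, the dopamine receptor gene of direct pathway spiny projection neurons, reached r = 0.70 (rho = 0.67, adjusted permutation p = 0.0507 and 0.0725). No pair with Lhx6 (interneurons), Ttr (choroid plexus) or Pdgfra (oligodendrocyte precursors) passed. The nearest was Igfbpl1 with Pdgfra, at r = -0.63 (rho = -0.54, adjusted permutation p = 0.0636 and 0.168). Erythroid genes, a sign of blood, summed to 839 CPM in F1 saline replicate 4 and to 56.2 CPM in F2 METH replicate 3, the highest and the lowest of all 15 libraries, while both libraries were the highest of their generation for Mki67.

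**Figure D4:**
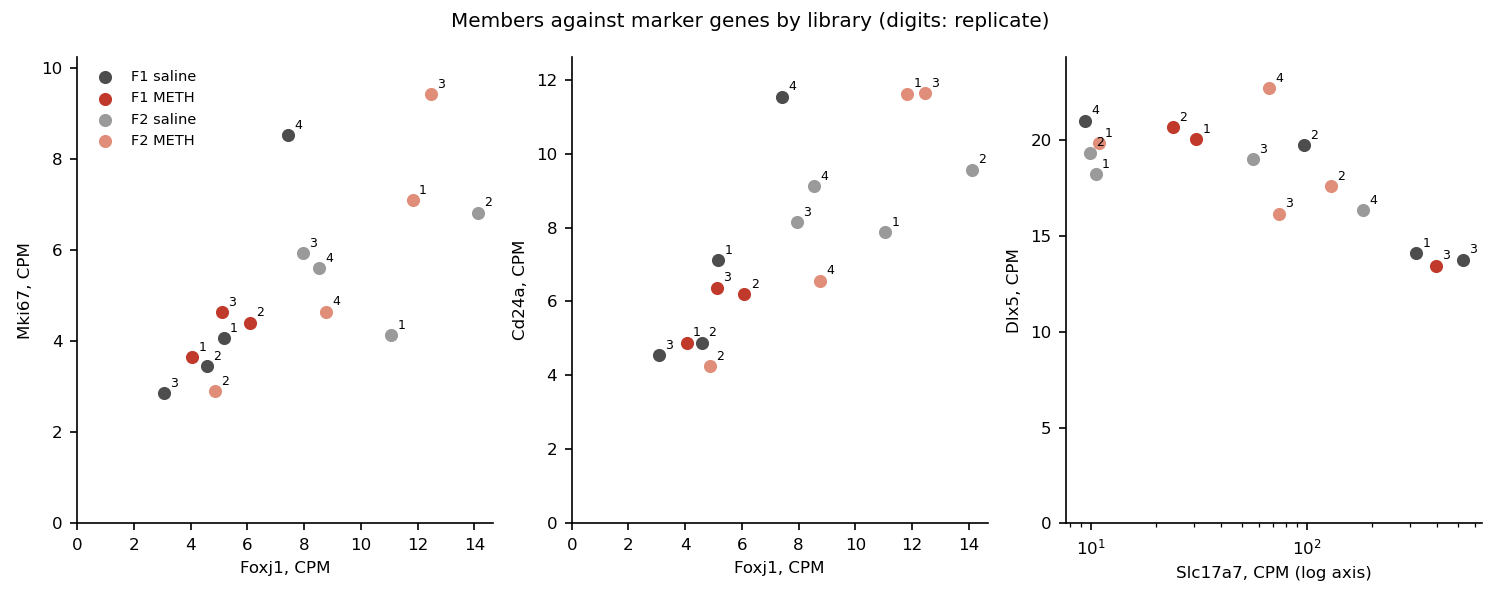
Each point is 1 of 15 libraries, coloured by group and numbered by replicate: Mki67 and Cd24a against Foxj1, and Dlx5 against Slc17a7 on a log axis, all in CPM. Within groups, Mki67 and Cd24a tend to be higher where Foxj1 is higher, though not in F2 saline replicate 1, and the libraries with the most Slc17a7 have the lowest Dlx5.

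The number of pairs that passed depended on single libraries more than r did. It was 20 of 105 with all libraries, 10 without F1 saline replicate 4, 11 without F1 METH replicate 1, 12 without F2 METH replicate 1, 11 without F2 METH replicate 2 and 2 without F2 METH replicate 3. Without both F1 saline replicate 4 and F2 METH replicate 3, the r of Cd24a with Mki67 was 0.92, of Sox4 with Dlx1 0.91, of Mki67 with Top2a 0.85 and of Cd24a with Foxj1 0.82, and the median over the 45 pairs was 0.49. Over the 10 libraries with Slc17a7 at or under 100 CPM the median was 0.68, while 0 pairs passed. That 0 was close to fixed in advance, since few libraries were left in each group and few permutations within groups exist. The smallest p they allow can hardly pass adjustment over 105 pairs.

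Likeness was ranked among 13692 genes tested in both generations with a mean of at least 1 CPM, leaving out symbols of the Gm and Rik type. The deviations most like those of Mki67 were those of Cd24a (r = 0.95), Fbln7 (0.93), Hydin (0.92), Cfap43 (0.91) and Spef2 (0.91), over 15 libraries. An r of at least 0.80 with Mki67 was found for 39 of the 13692 genes, 0.285%. For Dcx the most alike were Ypel1 (0.85), Dpysl3 (0.84), Cdan1 (0.84), Ap1b1 (0.79) and Tnfrsf23 (0.79), and 3 genes reached 0.80, 0.0219%.

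Other genes of the same biology were read from lists. Of 30 neuroblast genes (8 of them among the 10 above), 12 were higher and 18 lower in F1 METH mice with a median log2 fold change of -0.03, and 19 were higher and 11 lower in F2 with a median of 0.03. None was called by edgeR in either generation. At an unadjusted p under 0.05 there was 1 in F1, Marcksl1 (-0.33, SE 0.14), which encodes an actin-associated protein. There were 4 in F2: Dlx1, Dlx2, the zinc finger factor Sp9 (0.20, SE 0.08) and the tubulin gene Tubb2b (-0.16, SE 0.07), so that they did not share a direction. Over all genes, 4.18% in F1 and 4.77% in F2 passed this unadjusted threshold, here and for the lists that follow. Without the 8 members, the neuroblast list summed to 2208 to 2501 CPM in F1 saline, 2075 to 2281 in F1 METH, 2337 to 2632 in F2 saline and 2383 to 2549 in F2 METH mice. F1 saline replicate 4, the highest F1 library for Mki67, was the lowest of its group in this sum. Gad1 had the largest part in it, with a mean of 519 CPM in F1 saline. Ncam1 followed at 298, Nrxn3 at 267 and Tubb3 at 263 CPM, and others were far lower, such as Sp8 at 0.984 CPM. The sum is thus set by a few abundant genes and is not a level of neuroblasts alone. Sp9 was at 31.0 ± 3.19 CPM in F2 saline and 35.3 ± 2.05 CPM in F2 METH mice (SD, n = 4 each). Genes neighbouring Dlx5 gave, in F1 and F2, 0.11 (SE 0.24) and 0.10 (SE 0.14) for Dlx6 and -0.03 (SE 0.15) and -0.12 (SE 0.12) for the noncoding RNA Dlx6os1. Sp8, a zinc finger factor of olfactory bulb interneurons, gave 0.32 (SE 0.47) and -0.06 (SE 0.31), and the neuronal tubulin gene Tubb3 gave -0.23 (SE 0.12) and -0.03 (SE 0.07).

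Upstream of neuroblasts, 13 of 20 stem and transit amplifying genes were higher in F1 METH mice and 9 of 20 in F2, with medians of 0.06 and -0.02, 0 called in either and 2 in each at an unadjusted p under 0.05. Egfr, a growth factor receptor of transit amplifying cells, had log2 fold changes of 0.07 (SE 0.14) in F1 and -0.05 (SE 0.13) in F2. The smallest p of the list in F1 were those of Prom1 (0.64, SE 0.11) and Lfng (0.38, SE 0.13), and in F2 those of Fabp7 (-0.36, SE 0.14) and Slc1a3 (-0.18, SE 0.07). The last pair are expressed by astrocytes as well as neural stem cells. For the 12 astrocyte markers, 10 were higher in F1 and 0 in F2.

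Of 24 S phase genes, 5 were higher and 19 lower in F1 METH mice, with a median of -0.10, and 15 were higher and 9 lower in F2, with a median of 0.02. edgeR called 0 in each, with 2 in F1 and 0 in F2 at an unadjusted p under 0.05. The 2 were Chaf1b, of the chromatin assembly factor, with means of 0.525 CPM for saline and 0.179 CPM for METH mice (-1.52, SE 0.56), and the exonuclease gene Exo1, at 0.871 and 0.428 CPM (-1.01, SE 0.42), both at very low counts. Pcna, the sliding clamp of DNA polymerase, was at 19.2 ± 0.799 CPM in F1 saline and 17.5 ± 0.496 CPM in F1 METH mice (SD, n = 4 and n = 3). The F1 groups did not overlap for Pcna, at a log2 fold change of -0.12 (SE 0.09), and in F2 they overlapped. In the same list the F1 groups also did not overlap for Exo1, lower in METH mice, and for Cdc45, which went the other way. Cdc45 had means of 1.30 CPM in F1 saline and 1.80 CPM in F1 METH mice. Over all genes, 5.56% had F1 groups that did not overlap in either direction. The sum over the S phase genes was 149.5 to 171 CPM in F1 saline and 139 to 159 CPM in F1 METH mice. In F2 it was 155 to 169.6 CPM in saline and 146 to 173 CPM in METH mice. The highest library of each generation was F1 saline replicate 4 and F2 METH replicate 1.

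Of 30 genes of G2 and mitosis, with Mki67 and Top2a among them, 13 were higher and 17 lower in F1 METH mice (median -0.10), and 17 were higher and 13 lower in F2 (median 0.09). edgeR called 0 in each, with 1 in each at an unadjusted p under 0.05. In F1 this was the cytokinesis gene Anln (0.23, SE 0.09), at 35.7 CPM in saline, and in F2 the centromeric histone gene Cenpa (-0.88, SE 0.36). Anln is also expressed in myelinating oligodendrocytes. The mitotic kinase gene Cdk1 and the cyclin gene Ccnb1 were both near 1 CPM, with log2 fold changes of -0.11 (SE 0.44) and 0.26 (SE 0.45) in F1 and -0.09 (SE 0.29) and -0.08 (SE 0.31) in F2. Without Mki67 and Top2a, the list summed to 64.7 to 98.0 CPM in F1 saline, 75.4 to 91.2 in F1 METH, 81.5 to 113 in F2 saline and 76.5 to 112 in F2 METH mice, and these ranges overlapped within each generation. Anln had the largest part in this sum, with means of 35.7, 41.7, 48.6 and 42.6 CPM in these groups, so that the sum is not a level of mitotic genes alone.

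Markers of other cells in the dissected tissue were counted the same way, and edgeR called 0 in any list. In F1 and F2 METH mice respectively, 14 and 14 of 15 spiny projection neuron markers, 2 and 3 of 15 interneuron markers, 3 and 10 of 15 cortical excitatory markers and 7 and 9 of 15 ependymal markers were higher. Of 15 oligodendrocyte precursor markers, 8 and 1 were higher, of 7 tested choroid plexus markers 2 and 1, of 12 microglial markers 11 and 0, of 12 endothelial markers 9 and 4, and of 5 erythroid genes 0 and 2. At an unadjusted p under 0.05 in edgeR, F1 and F2 respectively gave 5 and 1 of 12 endothelial, 2 and 4 of 12 astrocyte, 0 and 3 of 12 microglial, 0 and 2 of 15 oligodendrocyte precursor and 1 and 0 of 15 interneuron markers, against 4.18% and 4.77% of all genes, and 0 of the spiny projection neuron, cortical excitatory, ependymal, choroid plexus and erythroid markers. For the difference between generations, 8 of the 12 astrocyte, 4 of the 12 microglial, 3 of the 12 endothelial, 1 of the 15 oligodendrocyte precursor and 1 of the 15 ependymal markers were under it, against 4.88% of all genes. The part of these in the values of the 10 genes was not tested.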

How the data were processed

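The submitters' processing notes name HISAT2 2.1.0, StringTie 2.1.3b, Trimmomatic, bcl2fastq 2.20.0 and build mm10, without settings; the strand and the derivation of counts were not stated in the labels. Per the file headers, the 2 deposited tables, 1 per generation, hold read counts, FPKM and TPM. The deposited counts are whole numbers and were used as raw counts. FPKM, the authors' values per the file headers, were not used. TPM, also the authors' values per the file headers, served for levels and an alternative. Positions come from a RefSeq table of GRCm38.p6, matched by gene ID, and promoter windows held 7 of the 10 genes.

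The 10 genes, the 14 lists (230 memberships, 230 matched by symbol) and the tests were chosen with earlier results of these data known. Each whole table was fitted with edgeR 4.0.16 in R 4.3.3 (quasi-likelihood test, TMM, a filterByExpr count minimum of 10, and a threshold of 0.05 on Benjamini-Hochberg adjusted p). The difference was the interaction over 15 libraries. Printed CPM use 1 TMM scaling of all libraries, and correlations use log2 CPM (prior count 2) and 100000 resamples. Besides the 10 genes, the text names 10 related genes (1 of which is not reported here) and 6 marker genes whatever their result, the 2 smallest p of a list, and the 5 genes most like Dcx and Mki67; Tubb2b was added after its values were seen. Alternatives were DESeq2 1.42.0, limma 3.58.1 (voom, or trend on log2 of TPM plus 1 or 0.1), other filters and scalings, a robust fit, 1 fit of all libraries, a replicate block and leaving out libraries. The steps were tested on simulated data. Of 21 pairs of replicates, 0 agreed within sampling noise. Figures used Python 3.11.15 and matplotlib 3.10.9.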

Additional observations from a re-analysis of the deposited data

How the results depend on the processing

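Of the 10 genes, 0 were called under any alternative, and the smallest adjusted p was 0.533 (F1), 0.587 (F2) and 0.702 (difference). Dlx1 and Dlx2 in F2 were positive under all 19 alternatives each (0.26 to 0.62 and 0.21 to 0.39), with an unadjusted p under 0.05 in 10 and 8 of them (limma-voom 0.0793 and 0.0796), and Dcx in F1 was negative under all 18 (-0.36 to -0.12). Counts over all genes, reported as 0 (F1), 0 (F2) and 1 (difference), were 7, 9 and 4 with the DESeq2 Wald test and 3, 1 and 0 with limma-voom. On log2 TPM plus 1 they were 1 in F1 and 0 for the difference, as with plus 0.1 (1 and 0). A mean CPM of at least 1 gave 0 for the difference. Without libraries with Slc17a7 above 100 CPM they were 1, 1 and 0. That setting also gave 0 correlated pairs, where too few permutations exist for a pair to pass readily. A single fit of all 15 libraries gave 1 in F1. Leaving out 1 library gave 0 to 2 (F1), 0 to 1 (F2), 0 to 2 (difference) and 2 to 30 pairs; leaving out libraries for the pairs was chosen after seeing the data. The cause of these moves was not tested.

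Some estimates, none of them called, changed sign. With the replicate block the F1 values were Sox4 0.0432, Cd24a 0.103, Dlx1 0.0151, Dlx2 0.0175 and Mki67 0.30, the differences were Sox4 -0.0348, Cd24a -0.23 and Mki67 -0.29, and 0 genes were called for the difference. Same-numbered libraries had correlations of -0.0345, 0.0594 and 0.40 in F1 and of -0.0618 to 0.0388 in F2, so the numbers were not taken as pairs. limma-voom gave Mki67 -0.0648 and Top2a -0.0571 in F2, and differences of -0.0105 for Cd24a and -0.0425 for Mki67. The difference of Top2a was 0.0058 with DESeq2 size factors, 0.0094 with the Wald test, 0.0060 with no filter and 0.019 with a mean CPM of at least 1. That of Dlx5 was 0.0036 with that filter and 0.0527 and 0.0539 on log2 TPM plus 1 and plus 0.1. Without the libraries high in Slc17a7, F1 values were Igfbpl1 -0.16 and Top2a -0.20, F2 values Sox11 0.0526, Cd24a 0.24 and Igfbpl1 0.13, and differences Dlx5 0.0685, Igfbpl1 0.29 and Top2a 0.49.

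Leaving out 1 library at a time, ranges that crossed 0 were, in F1, Sox4 -0.14 to 0.0805, Cd24a -0.43 to 0.083, Dlx1 -0.14 to 0.10, Dlx2 -0.23 to 0.0278, Dlx5 -0.0284 to 0.25, Mki67 -0.34 to 0.30 and Top2a -0.21 to 0.46. In F2 they were Dcx -0.0014 to 0.19, Sox11 -0.13 to 0.0086, Sox4 -0.0544 to 0.10, Cd24a -0.21 to 0.21, Dlx5 -0.0177 to 0.15, Igfbpl1 -0.40 to 0.15, Mki67 -0.20 to 0.34 and Top2a -0.14 to 0.31. For the difference they were Sox11 -0.0296 to 0.18, Sox4 -0.0703 to 0.15, Cd24a -0.11 to 0.47, Dlx5 -0.18 to 0.11, Mki67 -0.20 to 0.49 and Top2a -0.39 to 0.28. A group left with few libraries borrows its spread from the others. Intervals were widest for Top2a, Mki67, Igfbpl1 and Cd24a.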
